A study of Mus musculus with 10 samples.

Results

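The 10 lipid droplet and triglyceride genes described here are Dgat1, Dgat2, Plin2, Plin3, Pnpla2, Pnpla3, Lipe, Mgll, G0s2 and Abhd5, which were chosen by name for their roles in storing and breaking down neutral lipid. All 10 were found among the 35968 annotated genes of the tables, and 9 had enough counts to be tested; Pnpla3 did not. RNA came from hepatic stellate cells of male C57BL/6 mice. The 5 Areg libraries came from quiescent cells that were cultured for 5 h and then given recombinant mouse amphiregulin (Areg, 500 ng/mL) for 4 h in starving medium, and the 5 control libraries from cells kept in parallel without it. Amphiregulin activates the epidermal growth factor receptor, and the series title places the work in liver fibrosis and insulin resistance of fatty liver disease. Whether the libraries of a group came from separate animals or cultures is not stated, so the p-values rest on a spread between libraries that may be technical.

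Quiescent stellate cells are the vitamin A stores of the liver and hold lipid droplets of retinyl esters and triglycerides, which shrink when the cells turn into myofibroblasts. Triglyceride is made from diacylglycerol by the acyltransferases DGAT1 and DGAT2, packed into droplets coated by perilipins, and cut stepwise by ATGL (the product of Pnpla2), hormone-sensitive lipase (Lipe) and monoacylglycerol lipase (Mgll). ABHD5 activates ATGL, and G0S2 inhibits it.

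The libraries held 14365027 to 20057962 estimated counts in the Areg group and 10125184 to 17566891 in the control group. The stellate cell label was checked against 10 markers, all of which were detected, with the matrix proteoglycan gene Dcn at 5150 to 5500 TPM (a relative transcript level corrected for transcript length). The summed level of these markers was 9320 to 9700 TPM in Areg libraries and 10040 to 10930 TPM in controls. Dcn and Ecm1 made up most of it. Dcn had means of 5270 TPM with Areg and 5390 TPM in controls, and Ecm1 3570 TPM with Areg and 4410 TPM in controls. Lrat, Cygb, Ecm1, Hhip and Lhx2, named after their values were seen, were lower with Areg. These were 5 of the 10, all of them tested, against 8.31% of all tested genes called lower. The others, Reln, Des, Pdgfrb, Colec11 and Dcn, did not pass the test. Markers of other liver cells were present too. The 8 hepatocyte markers summed to 1158 to 1439 TPM with Areg and 1088 to 1724 TPM in controls, with Cyp2e1 higher and Hnf4a lower, also named after their values were seen. The 6 endothelial markers summed to 2444 to 2542 TPM with Areg and 2459 to 2816 TPM in controls, and the 8 macrophage markers to 607.8 to 667 TPM with Areg and 636 to 692 TPM in controls. None of the endothelial or macrophage markers passed the test. The 6 adipocyte markers summed to 6.83 to 14.0 TPM with Areg and 7.74 to 11.7 TPM in controls, and none of the 2 tested passed. Most of this sum came from Cidec and Cfd, while Adipoq and Lep had 3 counts each over the 10 libraries together. In bulk RNA, fewer cells of a type and less RNA per cell cannot be told apart, and the part that the mix of cells has in the results below was not tested.

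Of the 9 tested genes, 3 were lower with Areg and 0 were higher, at an adjusted p under 0.05 (edgeR's quasi-likelihood test, Benjamini-Hochberg over all 13354 tested genes). They were Dgat1, Plin2 and Pnpla2, one each from synthesis, droplet coat and lipolysis, and their changes were small, between 15.3% and 24.6%. Among all tested genes, 16.6% were called in either direction, 8.31% lower and 8.33% higher. Without Areg replicate 2 the number of calls over all genes was 1369 in place of 2222, with the same number of calls, 3, among the lipid droplet genes. All 5 Areg libraries lay below all 5 controls in CPM (counts scaled to library size with TMM factors) for the same 3 genes and for 7.06% of all tested genes, and 7.64% lay above without overlap, among them 0 of the 9. The median log2 fold change of the 9 genes was -0.24, against -0.01 for all tested genes. The 6 others did not pass. An unadjusted p under 0.05 was found for 6 of the 9, which adds Plin3, Lipe and Mgll, and for 31.4% of all tested genes. The plot of CPM by library shows each gene.

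**Figure D1:**
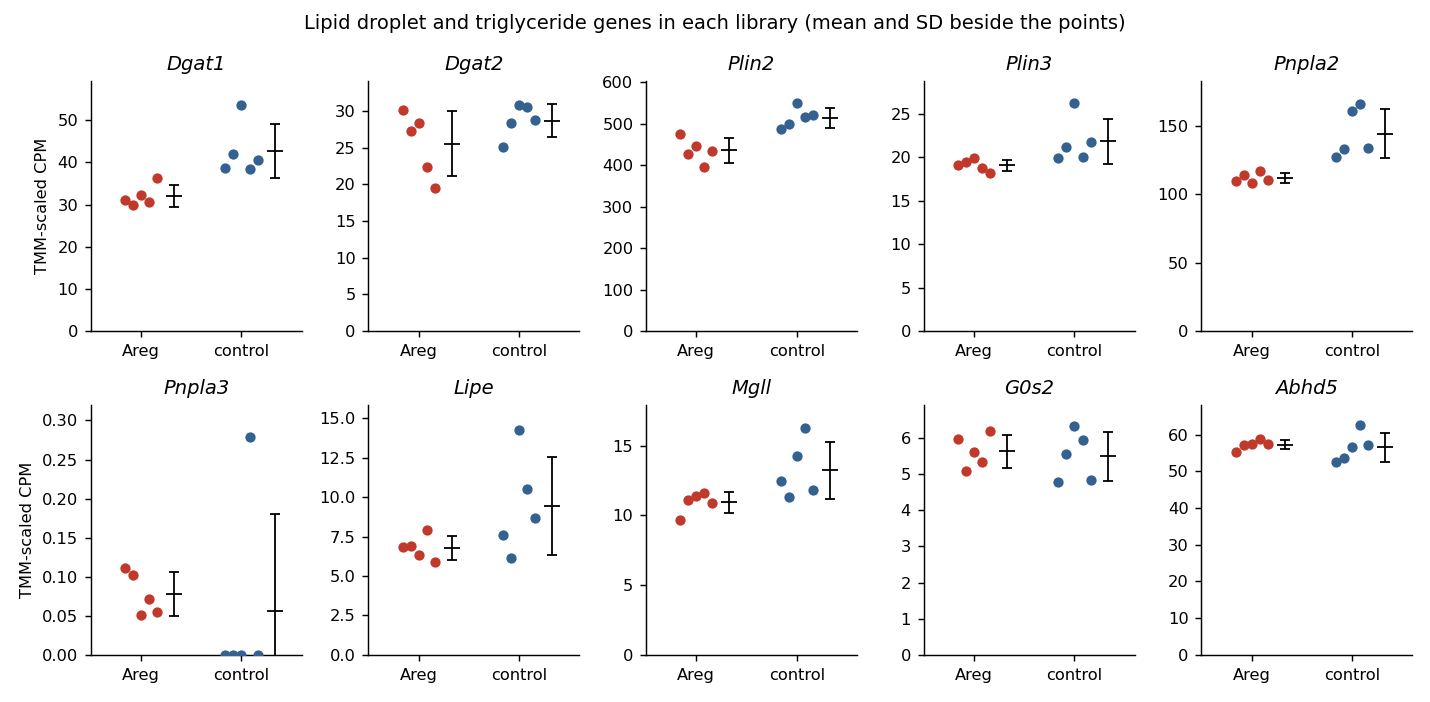
TMM-scaled CPM (vertical axis) of the 10 genes in the Areg and control libraries, with 1 point per library and the mean and SD (n = 5) beside the points. All Areg points lie below all control points for Dgat1, Plin2 and Pnpla2, and control 3 stands above the other controls for Dgat1.

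Of the synthesis genes, Dgat1 passed the test and Dgat2 did not, and the difference between their changes was not tested. Dgat1 (chromosome 15, 76502015 to 76511953, GRCm38), an endoplasmic reticulum acyltransferase that also esterifies retinol, had 30.95, 29.9, 32.3, 30.6 and 36.4 CPM in Areg libraries 1 to 5, against 38.7, 42.0, 53.6, 38.4 and 40.6 CPM in controls 1 to 5. Every Areg library was below every control, and control 3 was the highest by a wide margin. Dgat1 fell by 24.6%, a log2 fold change of -0.41 (SE 0.09, 95% confidence interval -0.59 to -0.23, edgeR adjusted p = 0.00455), and without control 3 the log2 fold change was -0.31. Dgat2 (chromosome 7, 99153658 to 99182719), the other and structurally unrelated acyltransferase, had 19.6 to 30.2 CPM with Areg and 25.1 to 30.7 CPM in controls. Areg replicate 1 alone lay above the control mean of 28.7 CPM. Replicates 4 and 5 were lowest at 22.3 and 19.6 CPM. The log2 fold change of Dgat2 was -0.16 (95% confidence interval -0.38 to 0.06, edgeR adjusted p = 0.309) and moved to -0.08 without Areg replicate 5.

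Of the droplet coat genes, Plin2 passed the test. Plin2 (chromosome 4, 86648386 to 86670060) encodes perilipin-2, the main droplet coat protein outside fat tissue. It had 477, 427, 447, 395 and 434 CPM in Areg libraries 1 to 5 and 487.5, 499.7, 551, 518 and 520.5 CPM in controls 1 to 5. The groups did not overlap, although the highest Areg library, replicate 1, came close to the lowest control, control 1. Plin2 fell by 15.3%, with a log2 fold change of -0.24 (SE 0.05, 95% confidence interval -0.35 to -0.13, edgeR adjusted p = 0.00600). Plin3 (chromosome 17, 56277476 to 56292873), a perilipin that moves between cytosol and nascent droplets, had 18.2 to 19.9 CPM with Areg and 19.85 to 26.2 CPM in controls. Only the highest Areg library of Plin3 reached the lowest control, and its log2 fold change of -0.19 did not pass (edgeR adjusted p = 0.114). Without control 3 that value was -0.11.

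Pnpla2 had the smallest p of the set. Pnpla2 (chromosome 7, 141455198 to 141460743), which encodes the triglyceride lipase that starts lipolysis, had 109.9, 114, 108, 117 and 110.1 CPM in Areg libraries 1 to 5 and 127, 133, 161, 166 and 134 CPM in controls 1 to 5. The Areg libraries lay close together, while controls 3 and 4 stood above the other controls. Pnpla2 fell by 22.4%, with a log2 fold change of -0.37 (SE 0.07, 95% confidence interval -0.51 to -0.22, edgeR adjusted p = 0.00211). Without controls 3 and 4 it was -0.23 (edgeR adjusted p = 0.000412), and every Areg library still lay below the 3 remaining controls.

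The later lipases did not pass the test. Lipe (chromosome 7, 25379527 to 25398710), whose product cuts diacylglycerol and also retinyl esters, had 5.86 to 7.91 CPM with Areg and 6.15 to 14.3 CPM in controls. Control 3 held the 14.3 CPM and control 4 had 10.5 CPM, so that the difference, -0.46 on the log2 scale with an SE of 0.18 (edgeR adjusted p = 0.0930), moved to -0.27 without control 3 and to -0.15 without controls 3 and 4. Without control 2, the lowest control, it was -0.58 and passed (edgeR adjusted p = 0.0215). Mgll (chromosome 6, 88724412 to 88828360), whose product frees the last fatty acid and also breaks down an endocannabinoid, had 9.66 to 11.6 CPM with Areg and 11.3 to 16.3 CPM in controls. Its log2 fold change was -0.27 (edgeR adjusted p = 0.0871), and -0.12 without controls 3 and 4. Pnpla3 (chromosome 15, 84167837 to 84187236), a paralog of Pnpla2 with reported retinyl esterase activity in human stellate cells, was hardly detected. It had 2, 2, 1, 1 and 1 counts in Areg libraries 1 to 5 and 0, 0, 0, 3 and 0 counts in controls 1 to 5. No difference in Pnpla3 was detectable at this depth.

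The genes that regulate ATGL did not pass. Abhd5 (chromosome 9, 122351608 to 122381524), the co-activator gene, had 55.25, 57.2, 57.5, 58.7 and 57.3 CPM in Areg libraries 1 to 5 and 52.6, 53.5, 56.75, 62.6 and 57.3 CPM in controls 1 to 5. All 5 Areg values lay inside the range of the controls. The log2 fold change of Abhd5 was 0.02, with a 95% confidence interval of -0.10 to 0.14 (edgeR adjusted p = 0.855). G0s2 (chromosome 1, 193272161 to 193273217), the inhibitor gene, had 5.98, 5.07, 5.60, 5.34 and 6.19 CPM in Areg libraries 1 to 5 and 4.79, 5.55, 6.33, 5.95 and 4.83 CPM in controls 1 to 5. The groups overlapped over nearly their whole range. G0s2 had 63 to 113 counts in a library, and its log2 fold change was 0.05 with a wider interval of -0.20 to 0.30 (edgeR adjusted p = 0.812).

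A trend in transcript length and GC content differed between libraries, and its removal made several of these values smaller. With the trend removed, the log2 fold changes were -0.31 for Dgat1, -0.23 for Plin2 and -0.20 for Pnpla2, and all 3 stayed called (edgeR adjusted p = 0.00489, 0.000334 and 0.00182). With the trend removed and controls 3 and 4 left out, Pnpla2 stood at -0.16 (edgeR adjusted p = 0.00512), Lipe at -0.03 and Mgll at -0.02. Dgat2, at -0.16 in the main test, stood at -0.03 with the trend removed and at -0.04 with these controls also left out. These settings were chosen with the data known. Among all tested genes, 61.7% of the calls were higher with Areg once the trend was removed and 37.7% on a log2(TPM + 1) scale, against 50.045% in the main test. With upper-quartile factors in place of TMM factors this share was 44.1%, and with DESeq2 size factors 50.6%.

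**Figure D2:**
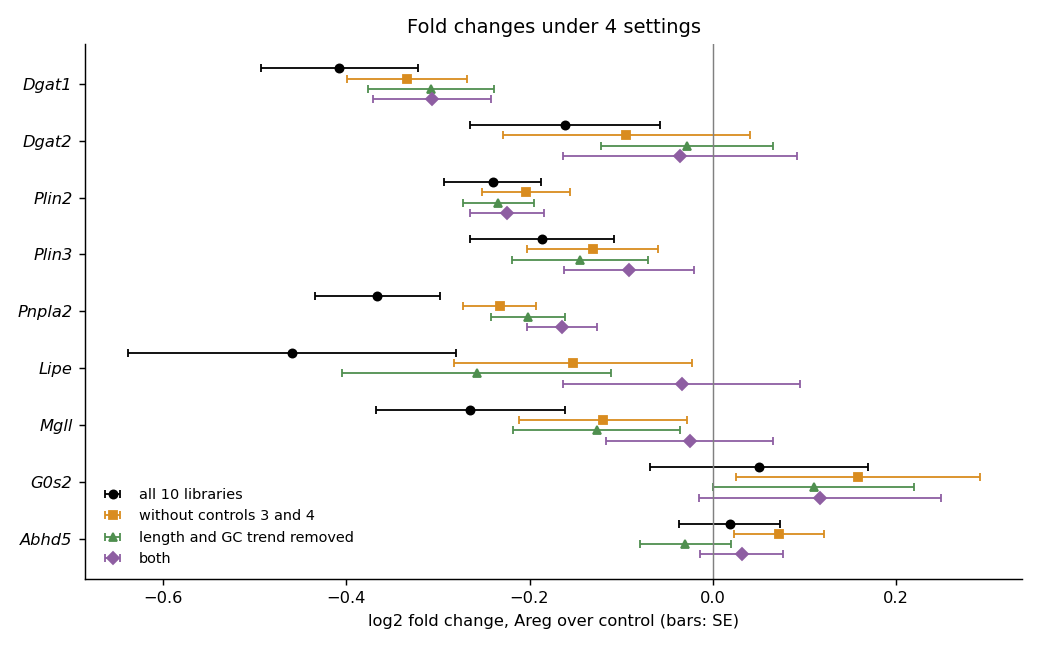
Log2 fold change, Areg over control, of the 9 tested genes in 4 fits, with the SE as bars. Dgat1, Plin2 and Pnpla2 stay below 0 in all 4, whereas Dgat2, Lipe and Mgll come close to 0 once the trend is removed and controls 3 and 4 are left out.

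Levels per transcript length spanned a wide range among the 10 genes. Plin2 was the most abundant in both groups, at 547 ± 37.9 TPM with Areg and 646 ± 25.8 TPM in controls (mean ± SD, n = 5, as for the values below). Pnpla2 was next, at 105 ± 2.20 TPM with Areg and 137 ± 12.9 TPM in controls. Abhd5 and Dgat1 came next. With Areg, Abhd5 at 52.6 to 58.55 TPM lay above Dgat1 at 40.1 to 50.3 TPM without overlap, whereas in controls Abhd5 at 49.1 to 61.5 TPM and Dgat1 at 51.7 to 75.9 TPM overlapped. Dgat2 followed at 19.8 ± 3.66 TPM with Areg and 22.5 ± 1.02 TPM in controls, below Dgat1 in every library. G0s2 had 12.8 ± 1.10 TPM with Areg and 12.8 ± 1.10 TPM in controls. Plin3 had 8.77 ± 0.346 TPM with Areg and 10.9 ± 2.57 TPM in controls, so the coat gene Plin3 was far below Plin2. In the control group G0s2 and Plin3 overlapped. Mgll had 5.04 ± 0.321 TPM with Areg and 6.16 ± 0.812 TPM in controls, and Lipe 4.21 ± 0.689 TPM with Areg and 5.72 ± 1.27 TPM in controls. Within each group, Mgll and Lipe overlapped each other. Between the groups, Mgll ranged from 4.51 to 5.27 TPM with Areg and from 5.28 to 7.33 TPM in controls, just without overlap. In CPM its groups overlapped, and the share of all genes without overlap in TPM was not computed. Pnpla3 ranged from 0.0762 to 0.791 TPM with Areg and from 0 to 0.386 TPM in controls.

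**Figure D3:**
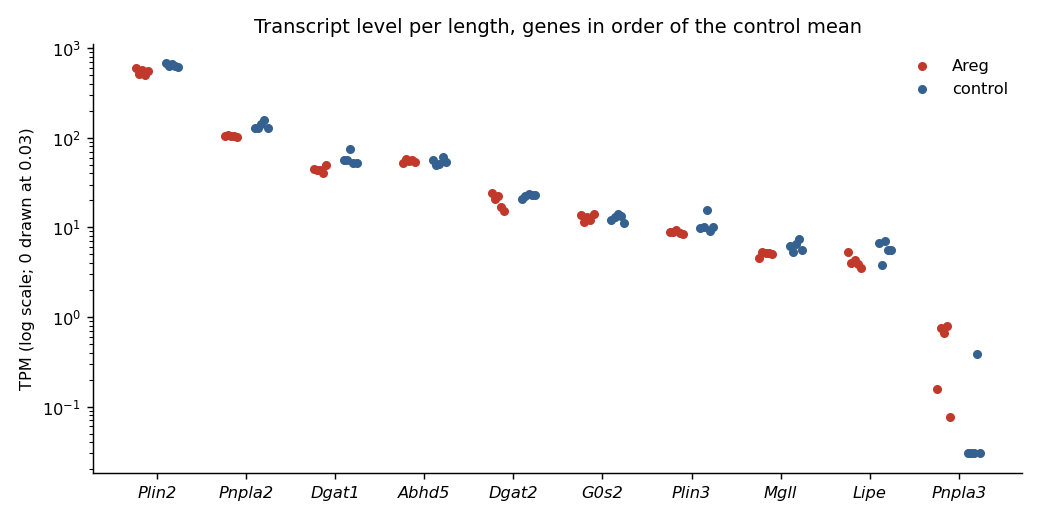
TPM of the 10 genes in each library on a log axis, ordered by the control mean, with values of 0 drawn at 0.03. Plin2 stands at the top, with means of 547 TPM with Areg and 646 TPM in controls, and Pnpla3 below 1 TPM at the bottom, and the Areg points of Dgat1 lie below those of Abhd5.

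Ratios within a library do not depend on how libraries are scaled to each other, and were described without a test. The pairs were chosen with earlier results of these data known, and the share of all gene pairs without overlap was not computed. Ratios can still carry the length and GC trend, and were not recomputed with it removed. Its removal moved the log2 fold change of Pnpla2 from -0.37 to -0.20. Abhd5 moved from 0.02 to -0.03 and G0s2 from 0.05 to 0.11. The ratio of Abhd5 to Pnpla2 in TPM was 0.502, 0.541, 0.535, 0.542 and 0.532 in Areg libraries 1 to 5 and 0.443, 0.381, 0.359, 0.390 and 0.421 in controls 1 to 5. Every Areg library had more Abhd5 TPM per Pnpla2 TPM than every control, summed over all forms of each gene. Most of the TPM of both genes was assigned to forms annotated as targets of nonsense-mediated decay, described below. The ratio is therefore not one of coding transcripts alone. The ratio of the inhibitor G0s2 to Pnpla2 was 0.1315, 0.106, 0.125, 0.114 and 0.137 in Areg libraries 1 to 5 and 0.0935, 0.102, 0.0983, 0.0856 and 0.08805 in controls 1 to 5. This ratio too was higher in every Areg library, although Areg replicate 2 came close to control 2. In both ratios the numerators overlapped between the groups and Pnpla2 did not. The ratio of Dgat2 to Dgat1 was 0.449 ± 0.0918 with Areg and 0.391 ± 0.0555 in controls, with overlap. The ratio of Plin3 to Plin2 was 0.0161 ± 0.00110 with Areg and 0.0169 ± 0.00359 in controls, also with overlap.

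**Figure D4:**
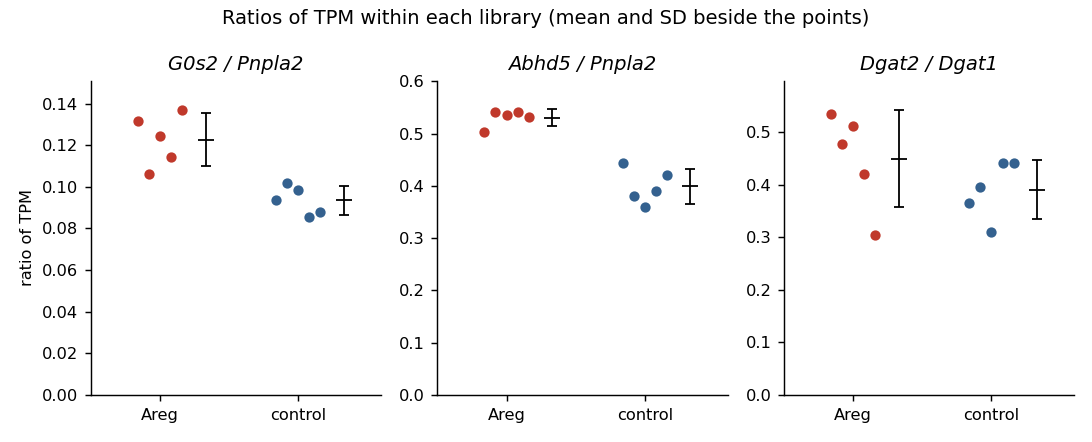
Ratio of TPM within each library (vertical axis) for 3 pairs of genes, with 1 point per library and the mean and SD (n = 5) beside the points. The Areg points lie above all control points for G0s2 over Pnpla2 and Abhd5 over Pnpla2, and the groups overlap for Dgat2 over Dgat1.

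The transcript forms of the genes were described without a test. The tables list 64 forms of the 10 genes, and 34 reached a mean of 1 TPM in a group. Of these, 3 were lower in every Areg library than in every control and 0 were higher. Among all 40153 forms that reached this level, 4.29% did not overlap, 2.58% lower and 1.7% higher. The share of a form in its gene's TPM overlapped between the groups for all 34, whereas 1.52% of all such forms did not overlap, 0.762% lower and 0.755% higher. The mean shares of some forms still lay far apart. Lipe-202 held 36.8 ± 16.6% of Lipe with Areg and 13.6 ± 12.6% in controls, and Lipe-201 held 42.35 ± 23.1% with Areg and 59.5 ± 25.9% in controls, with a wide spread among the libraries of a group. Dgat1-201, a coding form, had 17.75 to 24.3 TPM with Areg and 25.05 to 34.9 TPM in controls. Plin2-201, also coding, had 315 to 396 TPM with Areg and 423 to 449 TPM in controls. Pnpla2-201 had 56.2 to 68.3 TPM with Areg and 78.7 to 94.8 TPM in controls. All the forms here were named after their values were seen. Pnpla2-201 is annotated as a target of nonsense-mediated decay and was nevertheless estimated to hold most of its gene's TPM, 59.0% with Areg and 61.9% in controls. The coding form Pnpla2-202 held 26.9% with Areg and 25.5% in controls. Abhd5 likewise had most of its TPM in a form annotated as a decay target, Abhd5-201, with 57.2% of the gene with Areg and 54.7% in controls. Forms share most of their sequence and kallisto divides their reads by estimation, so these shares are uncertain.

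Pnpla2 and Abhd5, a lipase and its co-activator of which the lipase fell, are shown with the 250 bases before their start sites (RefSeq, GRCm38.p6, plus strand for both), chr7:141454938-141455187 and chr9:122351366-122351615. Capitals mark GGGCGG on either strand, the GC box bound by SP and KLF factors.
Pnpla2: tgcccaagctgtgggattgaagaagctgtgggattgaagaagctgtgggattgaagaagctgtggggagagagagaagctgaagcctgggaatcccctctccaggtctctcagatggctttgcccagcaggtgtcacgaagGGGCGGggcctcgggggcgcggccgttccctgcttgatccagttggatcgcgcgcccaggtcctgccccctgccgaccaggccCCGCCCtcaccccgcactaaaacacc
Abhd5: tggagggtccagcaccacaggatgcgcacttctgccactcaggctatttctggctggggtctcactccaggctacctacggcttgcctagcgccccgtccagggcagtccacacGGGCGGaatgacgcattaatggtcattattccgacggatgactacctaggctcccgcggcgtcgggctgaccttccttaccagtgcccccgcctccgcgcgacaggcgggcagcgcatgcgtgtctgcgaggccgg
Both windows hold this motif, as do those of 7 of the 8 genes with a window in the table and 32.7% of all 32851 promoter windows. The 250 bases of Pnpla2 have 63.2% GC and those of Abhd5 64.8%, above the median of 52.4% of all windows. The E-box CACGTG (in 6.02% of all windows) and the FOXO motif GTAAACA (3.17%) were each found for Lipe and Mgll, and the EGR core GTGGGCG (7.02%) for Plin3 and Lipe, searched on both strands; GTGGGCG can overlap the GC box. The AP-1 motif TGANTCA (6.75%) was in none of the 8. Lipe and Mgll have a pair of windows each, and a match of letters is a description and not a binding site.

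The wider lipid lists, which leave out the 10 genes above, held 118 tested genes, of which 9 were higher, 16 were lower and 93 did not pass. This was 21.2% called, against 16.6% of all tested genes, with a median log2 fold change of -0.03. Without Areg replicate 2 the count was 15. The lists were chosen with earlier results of these data known, and their counts describe these libraries.

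Storage of retinyl and sterol esters, the neighbouring branch of droplet metabolism in stellate cells, had 4 calls among 9 tested genes, 3 lower and 1 higher. These were 44.4% of the list, against 16.6% of all tested genes (8.31% lower and 8.33% higher). Lrat, which makes retinyl esters, had 33.2, 32.95, 30.8, 33.55 and 31.7 CPM in Areg libraries 1 to 5 and 47.8, 45.8, 43.4, 37.9 and 49.7 CPM in controls 1 to 5. It fell with a log2 fold change of -0.47 (edgeR adjusted p = 0.000291), without overlap. Dhrs3, a retinal reductase, fell (-0.34), as did Nceh1, a cholesterol ester hydrolase (-0.23). Rdh10, which oxidises retinol, rose (0.24).

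Genes for the oxidation of fatty acids included 5 falls and 0 rises among 19 tested. This was 26.3% called, against 16.6% of all tested genes (8.31% lower and 8.33% higher). Cpt1a, the carnitine acyltransferase of the outer mitochondrial membrane that prepares fatty acids for import, fell to 85.6 ± 5.28 CPM with Areg, against 101.5 ± 3.80 CPM in controls (log2 fold change -0.25). Cpt1c, a family member best known from neurons, fell to 5.23 ± 0.366 CPM with Areg, against 7.96 ± 1.41 CPM in controls (-0.60). Ppard, a nuclear receptor that drives oxidation genes, fell to 195 ± 4.39 CPM with Areg, against 245 ± 25.3 CPM in controls (-0.33). With the length and GC trend removed Ppard stood at -0.11 (edgeR adjusted p = 0.0196), still called. The co-activator Ppargc1b also fell (-0.67). The remaining fall was that of Cpt2, the inner-membrane partner of Cpt1a (-0.31, edgeR adjusted p = 0.0446), named after its value was seen. The groups of Cpt2 overlapped, and its call was not followed through the alternative fits. The value of Ppargc1b did not pass with the length and GC trend removed or without controls 3 and 4. The list median was -0.12.

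Uptake and activation of fatty acids had 4 rises and 1 fall among 13 tested genes and a median log2 fold change of 0.11. Called genes made up 38.5% of this list, against 16.6% of all tested genes (8.33% higher and 8.31% lower). Acsl4, which activates polyunsaturated fatty acids, rose to 892 ± 20.6 CPM with Areg, against 715 ± 91.4 CPM in controls (0.32). Lpl, the lipoprotein lipase that frees fatty acids outside the cell, rose to 401.5 ± 9.62 CPM with Areg, against 357 ± 22.7 CPM in controls (0.17, edgeR adjusted p = 0.0259). Fabp1, a fatty acid binding protein typical of hepatocytes, rose (0.39), with overlap, and did not pass without controls 3 and 4. Acsl3, another activating enzyme gene, named after its value was seen, rose (0.285), with overlap, and its call was not followed through the alternative fits. Slc27a4, a fatty acid transporter, fell (-0.25), and did not pass without controls 3 and 4. With the length and GC trend removed, Lpl (0.08), Fabp1 (0.20) and Slc27a4 (-0.07) did not pass, and with the replicate number as a block Fabp1 did not pass.

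The other lists were mixed. Among 25 other lipases and regulators of lipolysis, 1 rose and 3 fell, which was 16% called, against 16.6% of all tested genes. Angptl4, a secreted inhibitor of lipoprotein lipase, rose to 118 ± 3.398 CPM with Areg, against 79.3 ± 7.39 CPM in controls (log2 fold change 0.58, edgeR adjusted p = 1.2e-05), the smallest p of the wider lists. Lipa, the lysosomal acid lipase, fell (-0.17), and so did Pnpla6, a phospholipase of the same family as Pnpla2 (-0.36), and Dagla, which makes the endocannabinoid that Mgll breaks down (-0.33). The fall of Dagla was not called with the length and GC trend removed, where its log2 fold change was -0.11. Among 15 glycerolipid synthesis genes, 26.7% were called. Agpat5 (0.35) and the glycerol kinase gene Gk (0.39) rose, and the phosphatidate phosphatase genes Lpin2 (-0.17) and Lpin3 (-0.32) fell. Lpin3 did not pass with the trend removed (-0.18) or without controls 3 and 4. Of 17 genes for the synthesis and desaturation of fatty acids, 2 fell, or 11.8%. They were the lipogenic transcription factor Srebf1 (-0.25) and the desaturase Fads1 (-0.21), and both calls ended with the trend removed.

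Of 20 other genes of droplet coat and assembly, 1 was called, or 5%, against 16.6% of all tested genes. It was the small GTPase gene Rab18, which rose (0.18, edgeR adjusted p = 0.0314). Rab18 did not pass without controls 3 and 4 or with the length and GC trend removed, where it stood at 0.06. The perilipin genes of fat and oxidative tissue were too low to be tested. Plin1 had 0.296 ± 0.124 CPM with Areg and 0.785 ± 0.541 CPM in controls, Plin4 had 0.282 ± 0.0964 CPM with Areg and 0.392 ± 0.198 CPM in controls, and Plin5 had 0.260 ± 0.134 CPM with Areg and 0.543 ± 0.224 CPM in controls. Among the 5 perilipin genes, Plin2 and Plin3 were thus the ones with enough counts to test.

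Several of these wider calls ended when 1 library was left out, always with the same sign. Ppargc1b stood between -0.63 and -0.60 without control 4 or Areg replicate 2, 4 or 5, and Slc27a4 between -0.25 and -0.19 without control 4 or Areg replicate 2, 3 or 5. Rab18 stood between 0.16 and 0.18 without control 4 or Areg replicate 1, 2, 4 or 5, and Lpl between 0.16 and 0.17 without Areg replicate 3, 4 or 5. Nceh1 stood between -0.22 and -0.19 without control 1 or Areg replicate 1, 2 or 4, and Lpin3 between -0.31 and -0.26 without Areg replicate 3, 4 or 5. Lpin2 was at -0.17 and -0.16 without Areg replicate 2 or 4, Fads1 at -0.19 and -0.21 without Areg replicate 1 or 2, and Fabp1 at 0.34 and Srebf1 at -0.23 without Areg replicate 2. Some wider calls ended on log2(TPM + 1), on log2(TPM + 0.1) and with an offset for transcript length alike. They were Cpt1a, Gk, Pnpla6, Lpin2, Lpin3, Lpl, Slc27a4, Rab18, Srebf1, Fads1 and Nceh1. Acsl4 and Rdh10 lost theirs on both TPM scales, and Ppargc1b on log2(TPM + 0.1) and with the offset.

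**Figure D5:**
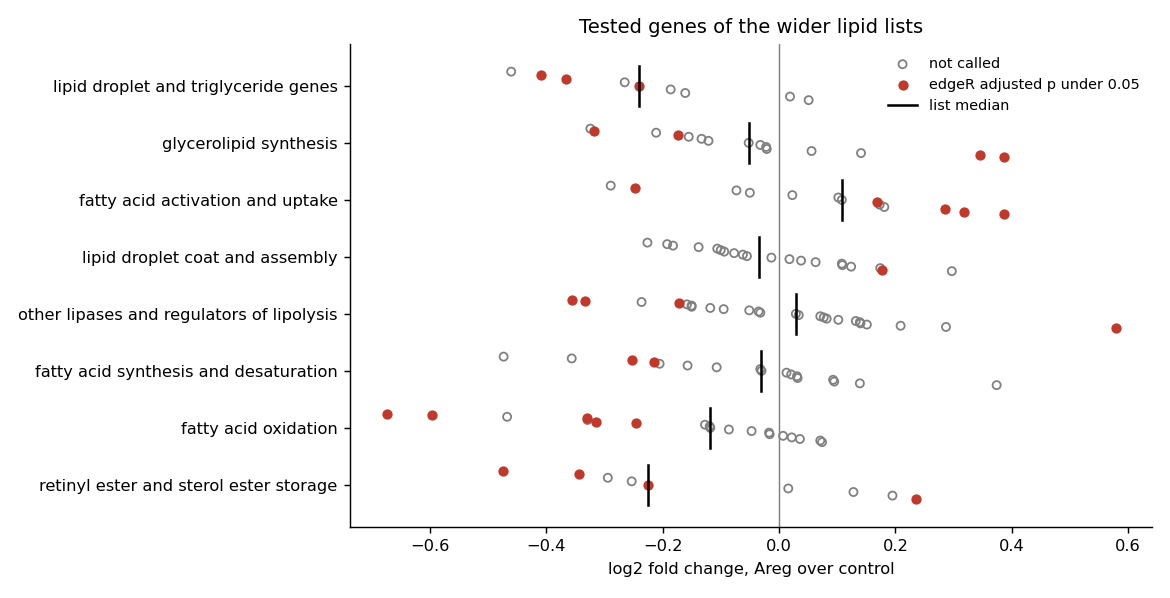
Log2 fold change, Areg over control, of each tested gene in the 10-gene set and in 7 wider lipid lists, with filled points for an edgeR adjusted p under 0.05 and a bar at each list's median. The median of the 10-gene set is -0.24, and the filled points of fatty acid oxidation lie on the left and most of those of fatty acid activation and uptake on the right.

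The genes whose profile over the 10 libraries was most like that of Pnpla2 were Tsku, Tmem104 and Ngfr. Likeness was the root-mean-square distance of centred log2 CPM, which was 0.0497, 0.0539 and 0.0542 for these 3, against a median of 0.258 over 12637 genes. Tsku, a secreted small leucine-rich protein gene, had 51.2 ± 3.06 CPM with Areg and 64.7 ± 9.95 CPM in controls. Ngfr, the low-affinity neurotrophin receptor gene, had 40.6 ± 2.08 CPM with Areg and 51.3 ± 6.39 CPM in controls. Tmem104 had 24.7 ± 0.364 CPM with Areg and 33.7 ± 3.66 CPM in controls. The 3 genes were picked for the smallest distances, so their closeness and their lower values with Areg follow from the choice.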

How the data were processed

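Poly-A RNA of 10 libraries was sequenced. The authors deposited 1 kallisto table per library with estimated counts, which need not be whole, of 118489 transcripts. The deposited TPM values sum to 1000000 in each library over all transcripts, and transcript lengths are in bases. Per the submitters' processing notes, kallisto 0.44.0, bcl2fastq 2.19, DESeq2 and GRCm38.p6 were used, without their roles. For the strand setting and the transcript set, the sources used here give no statement. Lipe, Mgll, G0s2, Abhd5 and Pnpla3 overlap genes on the opposite strand, whose reads cannot be told apart without strand. Lamb3, which spans G0s2, had 0.374 CPM with Areg and 0.233 CPM in controls. The antisense gene 4732471J01Rik covers the whole of Lipe (19184 bases), and no counts of it were available. The antisense genes over Mgll and Abhd5 had no counts available either.

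GENCODE M21 (GRCm38) matched 116728 transcripts to genes. The 1761 unmatched ones, with 0.768 to 0.813% of a library's estimated counts, were left out. Counts were summed per gene, rounded and tested with edgeR 4.0.16 in R 4.3.3 (robust quasi-likelihood test, TMM factors, no covariates) on 13354 genes kept by filterByExpr (minimum count 10, total 15). Positive fold changes mean higher with Areg. Adjustment was by Benjamini-Hochberg over all tested genes at 0.05, and the SE and 95% intervals came from the F statistic. Library pairs within a group differed beyond sampling noise, with a chi-square of 3.77 to 49.7 for each degree of freedom. Controls 3 and 4 gave 5.00 with each other and 19.4 to 49.7 with controls 1, 2 and 5. Pairs among controls 1, 2 and 5 gave 5.12 to 9.67, and Areg pairs 3.77 to 10.3.

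The 10 genes and 7 wider lists were chosen with earlier results of these data known. Named were all 10 genes, up to 4 called genes of each wider list by smallest p, Plin1, Plin4, Plin5 and Lrat, and the 3 genes with at least 1 mean CPM whose log2(CPM + 0.5) profile was most like that of the gene with the smallest p; exceptions are marked. Alternatives were other scaling factors and filters, DESeq2 1.42.0, limma 3.58.1 on counts, log2(TPM + 1) and log2(TPM + 0.1), a length offset, protein-coding genes alone, a replicate block and single libraries left out. Added with the data known were the removal of a length and GC trend, the likelihood-ratio test, 1 surrogate variable (sva 3.50.0), and the omission of controls 3 and 4, which stood apart on the first principal component (38.9 and 25.0 against -14.3 to 0.800).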

Additional observations from a re-analysis of the deposited data

Results flagged for a closer look

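A single library stood far from the rest of its group for 6 of 82 groups of values checked, and chance flags about 1 in 20 such groups. Dgat1 had 53.6 CPM in control 3, against 38.4 to 42.0 CPM in the other controls. The ratio of Plin3 to Plin2 was 0.0231 in control 3, against 0.0143 to 0.0165 in the other controls. Control 3 also had the smallest total of all libraries, 10125184 estimated counts, and control 4 the next smallest, 10950603. The ratio of Abhd5 to Pnpla2 was 0.502 in Areg replicate 1, against 0.532 to 0.542 in the other Areg libraries and at most 0.443 in controls. Cpt1c had 4.59 CPM in Areg replicate 3, against 5.25 to 5.49 CPM in the other Areg libraries. Pnpla3 had 0.279 CPM in control 4 and a ratio to Pnpla2 of 0.00245 there, against 0 in the other controls, which rests on 3 counts.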

How the results depend on the processing

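The falls of Dgat1, Plin2 and Pnpla2 passed the threshold under all 26 alternatives, with log2 fold changes of -0.46 to -0.31, -0.27 to -0.20 and -0.41 to -0.16. The alternatives reuse the same libraries. Dgat1 came close to the threshold with the length offset (edgeR adjusted p = 0.0486). It was also close on log2(TPM + 1) and log2(TPM + 0.1) (limma adjusted p = 0.0401 and 0.0383). Dgat2, Plin3, Mgll, G0s2 and Abhd5 passed under 0, and Lipe under 1. The number of the 10 genes called was 3 to 4 with a library left out. Of all tested genes 2222 were called, and 1369 to 2309 with a library left out, the lowest without Areg replicate 2; of the wider lists 25 were called, and 15 to 27 with a library left out. Fewer were called on log2(TPM + 1), 854 and 11, on log2(TPM + 0.1), 866 and 11, and with the length offset, 1147 and 13; the cause was not tested. Same-numbered libraries did not deviate together throughout (correlations over genes of -0.06 to 0.19, with 2 of 5 numbers matching best), so the numbers were not taken as pairs; with the replicate number as a block, 2355 genes, 3 of the 10 genes and 26 of the wider lists were called. Pnpla3 has 0 to 3 counts in a library, which sets the limit for that gene.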
